A study of Mus musculus with 6 samples.

Results

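The genes described here build the protein folding system of the endoplasmic reticulum (ER) and its stress response, the unfolded protein response. They were taken from a list of 40 genes in 5 steps, namely stress sensors, lumenal chaperones, disulfide isomerases, the translocation channel, and ER-associated degradation (ERAD). Of the 22969 identifiers in the count table, 39 were matched to the list by gene symbol, and Manf is not analysed here. RNA was sequenced from hematopoietic stem cells of adult C57BL/6 bone marrow, sorted as LSKCD150+CD48- cells, that is, positive for Sca-1, c-Kit and CD150 and negative for lineage markers and CD48. In 3 libraries the mice were Vav1-cre; Rbfox2-fl/fl, in which Cre is driven in blood cells by Vav1 control sequences and removes the floxed Rbfox2 segment. In the other 3 libraries the mice were Rbfox2-fl/fl without Cre, so all mice carried the floxed alleles, and the effect of Cre itself cannot be told apart from that of the deletion. Rbfox2 is an RNA-binding regulator of splicing, and the study's title ties it to stem cell self-renewal and proteostasis. About 500 cells were used per library, and the age of the mice is not given beyond adult.

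Secreted and membrane proteins enter the ER through the Sec61 channel, are folded there by chaperones and disulfide isomerases, and are sent back to the cytosol for degradation when folding fails. Misfolded protein activates the sensors Ire1 (gene Ern1), Perk (gene Eif2ak3) and Atf6, and the factors they switch on, Xbp1 and cleaved Atf6, raise transcription of chaperone and ERAD genes. Hematopoietic stem cells are known for a low rate of protein synthesis and for sensitivity to misfolded protein.

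The libraries labelled Rbfox2-deleted held 23474895 to 35650284 counts and the controls 47895459 to 55151484, so depth was lower in each library with the deletion label. Rbfox2 itself had 2, 87 and 10 counts in libraries labelled Rbfox2-deleted 1, 2 and 3, against 238, 11 and 250 counts in controls 1, 2 and 3, so deleted library 2 and control 2 go against their labels. The sources used here do not say which exon the deletion removes, and every direction below rests on the labels. Controls 1 and 3 differed from each other far less than any other pair (chi-square per degree of freedom 3.44, against 156 to 808) and were summed and counted as 1 sample, which leaves n = 3 against n = 2. Library 1 labelled Rbfox2-deleted stood apart on the first principal component (65.0% of the variance, at -318.7 against 72.1 to 88.3 for the others). Libraries 1 and 3 with the deletion label had 2821 and 2467 Xist counts and no Eif2s3y counts, and all other libraries had at most 55 Xist counts and at least 576 Eif2s3y counts, so no control was female. Summed over 8 stem cell markers the level was 1536 to 1713 CPM (counts divided by the TMM-scaled library total) in libraries labelled Rbfox2-deleted and 1799 to 1841 CPM in controls, and Cd48 stayed at or below 0.0771 CPM. The 7 plasma cell markers with a row, a cell type rich in these genes, summed to 0.441 to 5.06 CPM with the deletion label and 0.828 to 3.95 CPM in controls, with Mzb1, Prdm1 and Tnfrsf17 under 1 CPM in every library. In libraries labelled Rbfox2-deleted erythroid markers summed to 13.4 to 181 CPM against 17.1 to 20.4 CPM in controls, granulocyte markers to 405 to 532 CPM against 547 to 831 CPM in controls, megakaryocyte markers to 52.3 to 231 CPM against 288 to 307 CPM in controls, and macrophage markers to 2.73 to 50.3 CPM against 56.8 to 59.6 CPM in controls. The granulocyte sum was mostly Prtn3, at 386 to 448 CPM with the deletion label against 528 to 808 CPM in controls. Its other markers were mixed. S100a9 was at 15.97, 14.8 and 2.52 CPM in libraries labelled Rbfox2-deleted 1, 2 and 3, against 3.70 to 4.38 CPM in controls. S100a8 was above the controls in library 1 and below them in libraries 2 and 3. Elane was below every control in all libraries with the deletion label, and Mpo and Ctsg were under 1 CPM everywhere. B cell markers, nearly all of it Cd79b, summed to 127 to 212 CPM with the deletion label against 226 to 323 CPM in controls. The part of depth, sex and these marker levels in the results below was not tested. In bulk RNA fewer cells of a type and less RNA per cell cannot be told apart.

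In libraries labelled Rbfox2-deleted, Xbp1, the isomerase genes Pdia3 and Pdia6, and the ERAD genes Edem2 and Herpud1 had higher levels than in controls. Hsp90b1, which encodes the ER chaperone Grp94, and 3 small translocation genes, Ssr4, Sec61b and Ssr2, had lower levels. These 9 genes had an unadjusted p under 0.05 in edgeR's quasi-likelihood test (5 higher and 4 lower of 39 members, against 9.89% of the 12350 genes tested, 5.33% higher and 4.56% lower). The split was 2 higher and 4 lower with upper quartile scaling (11.5% of all genes), 7 and 2 by DESeq2 (12%), 5 and 1 with sex as a covariate (3%), 4 and 0 with GC correction (5.5%), and 1 and 0 with transcript length correction (4.38%). After Benjamini-Hochberg adjustment over all genes edgeR called 0 of the 39 members and 0% of all genes, and DESeq2, an alternative count model, called 0 members and 1.43% of genes. The smallest adjusted p among members was 0.387 by edgeR, shared by 6 members, 0.0771 by DESeq2 (Pdia3), and 0.156 by limma-voom. Fitted values were above 0 for 24 members and below 0 for 15 (53.5% of all genes were above 0), with a median log2 fold change of 0.24, against 0.11 over all genes. With upper quartile scaling the medians were -0.09 for the members and -0.20 for all genes. The values of these 9 genes did not overlap between the groups, so leaving out 1 sample could hardly turn a sign, and none turned. Samples were left out 1 at a time, library 1, which stood apart, among them. Deleted library 2 and control 2, whose Rbfox2 counts go against their labels, were never left out together. Over these fits the log2 fold change ran from 1.26 to 1.55 for Xbp1, 1.15 to 1.61 for Pdia3, 0.72 to 1.05 for Pdia6, 0.95 to 1.32 for Edem2 and 0.77 to 1.19 for Herpud1. For the lower genes it ran from -1.20 to -0.94 for Ssr4, -1.18 to -0.85 for Sec61b, -1.10 to -0.64 for Ssr2 and -0.94 to -0.73 for Hsp90b1. Library 2 was the only male library with the deletion label, and against the male controls the values were 1.02 for Pdia6, 1.53 for Edem2, 1.49 for Herpud1, -1.06 for Ssr4, -0.98 for Sec61b, -0.51 for Ssr2 and -0.75 for Hsp90b1. For 17 members the values of one group all lay outside those of the other, 10 higher and 7 lower with the deletion label, against 32% of all genes, 14.9% higher and 17.2% lower. With upper quartile scaling 6 were higher and 8 lower, against 34.8% of all genes, 9.89% higher and 24.9% lower. Without library 1 labelled Rbfox2-deleted, 17 members had an unadjusted p under 0.05, beside 23.7% of all genes, and 26 did not overlap, beside 54.4%. Without control 2, 4 had such a p, beside 3.49% of all genes. With 6 separate libraries 14 members had such a p, beside 17.7%, and 16 did not overlap, beside 31.1%.

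**Figure D1:**
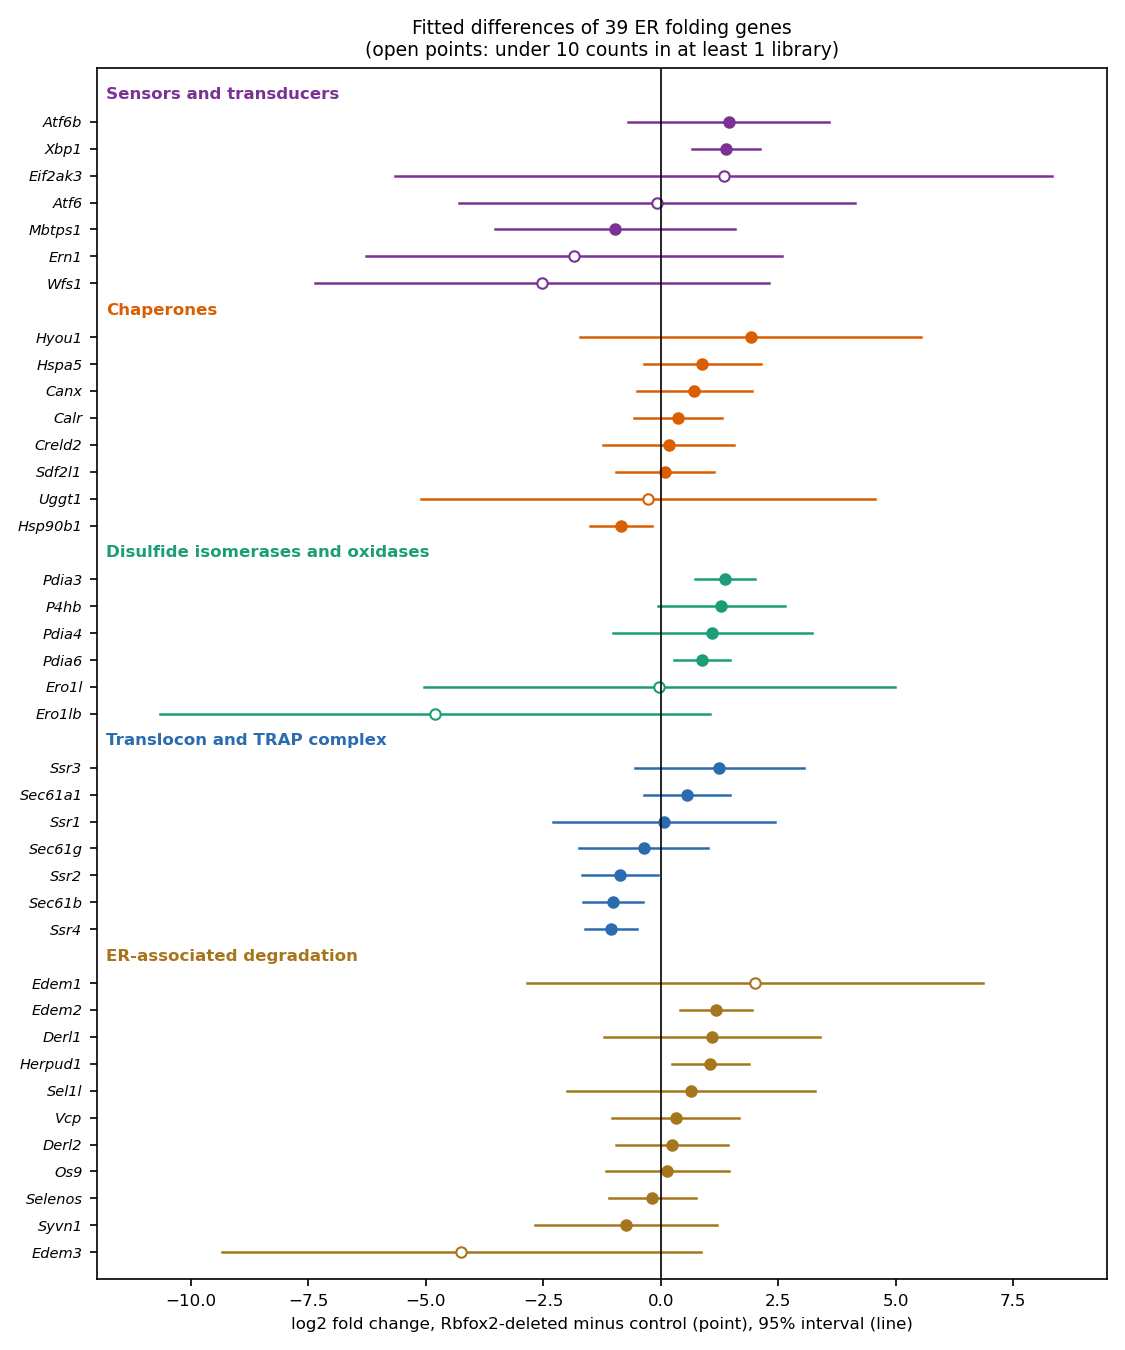
Fitted log2 fold change (x axis, libraries labelled Rbfox2-deleted minus control, points) with its 95% interval (lines) for 39 ER folding genes grouped by step; open points mark genes with under 10 counts in at least 1 library. The intervals of 9 genes lie clear of 0, 5 on the higher and 4 on the lower side, and the widest belong to genes with few counts.

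The levels of the main stress-response targets are read best beside their promoters, because Xbp1 and Atf6 are known to bind the ER stress response element (ERSE) and its variant ERSE-II. In the 250 bases upstream of the RefSeq transcript start (build GRCm38.p6, 34 members matched), the ERSE letters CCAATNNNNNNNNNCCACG occurred on either strand in 8 members and in 37 of 32851 promoter windows, which is 0.113%. The ERSE-II letters ATTGGNCCACG occurred in 1 member and in 0.0304% of windows, and the UPRE core TGACGTG, a site known for Xbp1, in 2 members and in 1.65% of windows. GENCODE places the starts of Hspa5, Hsp90b1, Pdia6 and Pdia3 further upstream, inside these windows. It does so for some other members too, by a few bases for Ero1lb, Calr and Sec61b. Positions, and the lack of a motif, therefore hold for the RefSeq start only. None of the matches found overlapped a match of another motif. The upstream windows of 4 members are shown because they hold the same kind of element while their genes differed in direction. They are printed 5′ to 3′ along the gene, with motif letters in capitals, and an element on the opposite strand reads in reverse complement.
Hspa5 (chr2:34771840-34772089, plus strand): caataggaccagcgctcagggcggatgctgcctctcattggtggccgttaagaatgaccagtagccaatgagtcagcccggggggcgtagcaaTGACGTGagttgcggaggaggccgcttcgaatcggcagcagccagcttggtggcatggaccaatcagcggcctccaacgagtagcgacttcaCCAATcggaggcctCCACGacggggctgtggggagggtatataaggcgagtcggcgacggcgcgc
Hsp90b1 (chr10:86705445-86705694, minus strand): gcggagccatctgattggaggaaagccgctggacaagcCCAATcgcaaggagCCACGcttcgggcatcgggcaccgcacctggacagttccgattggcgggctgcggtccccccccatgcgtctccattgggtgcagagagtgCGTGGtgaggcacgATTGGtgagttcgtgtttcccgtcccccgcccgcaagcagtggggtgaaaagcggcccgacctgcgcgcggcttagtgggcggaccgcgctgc
Pdia6 (chr12:17266339-17266588, plus strand): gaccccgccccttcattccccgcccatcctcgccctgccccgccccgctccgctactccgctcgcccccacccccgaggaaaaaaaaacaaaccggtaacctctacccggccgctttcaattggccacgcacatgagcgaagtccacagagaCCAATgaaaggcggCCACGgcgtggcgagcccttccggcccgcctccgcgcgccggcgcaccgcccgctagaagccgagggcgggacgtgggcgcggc
Herpud1 (chr8:94386179-94386428, plus strand): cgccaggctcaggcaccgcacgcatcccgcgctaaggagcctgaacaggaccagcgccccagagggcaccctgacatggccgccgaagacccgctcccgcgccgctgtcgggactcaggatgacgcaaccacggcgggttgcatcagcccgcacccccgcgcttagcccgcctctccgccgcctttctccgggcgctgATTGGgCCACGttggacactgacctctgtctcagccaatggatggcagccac
Hspa5 had its ERSE 65 to 47 bases upstream and the UPRE core 157 to 151 bases upstream. Hsp90b1 had 2 ERSE matches, at 212 to 194 bases and, on the opposite strand, at 107 to 89 bases. The single match of Pdia6 lay 98 to 80 bases upstream and the ERSE-II of Herpud1 52 to 42 bases upstream. A match is only a description of the letters, and for Xbp1, Pdia3, Edem2, Ssr4 and Sec61b none of the 3 motifs was in the window.

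The 9 ERSE matches, each read on the strand where the element is complete and with its fixed letters in capitals, are given so that the spacers of genes with higher and lower levels can be compared.
Hspa5: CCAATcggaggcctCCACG
Pdia6: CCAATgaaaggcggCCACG
Canx: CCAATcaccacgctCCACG
Calr: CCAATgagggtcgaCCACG
Creld2: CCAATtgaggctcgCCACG
Syvn1: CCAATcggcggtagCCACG
Hsp90b1, distal: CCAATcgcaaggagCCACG
Hsp90b1, proximal: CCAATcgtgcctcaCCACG
Ero1lb: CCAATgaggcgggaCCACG
The 8 genes with this element did not share a direction. The fitted log2 fold change was above 0 for Pdia6 and Hspa5 (0.88 each), Canx (0.72), Calr (0.37) and Creld2 (0.17), and below 0 for Syvn1 (-0.73), Hsp90b1 (-0.84) and Ero1lb (-4.81). Only Pdia6 and Hsp90b1 among them had an unadjusted p under 0.05 in edgeR, one in each direction.

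**Figure D2:**
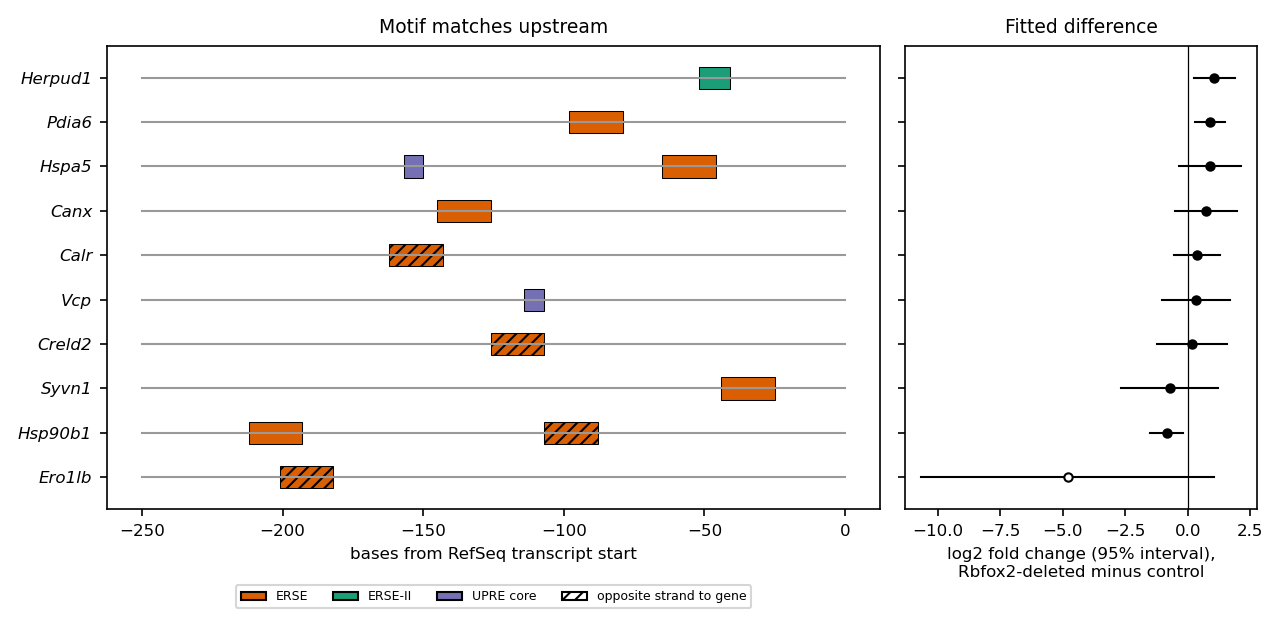
Left, matches of the 3 motifs by bases upstream of the RefSeq transcript start (x axis) in the 10 members that hold one, hatched where the element lies on the strand opposite to the gene. Right, the log2 fold change of each gene, libraries labelled Rbfox2-deleted minus control, with its 95% interval; genes with an ERSE stand on both sides of 0.

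Among the sensors and transducers, Xbp1 (ENSMUSG00000020484, chr11:5520659-5525893, plus strand, mm10), the transcription factor made by Ire1-dependent splicing, differed most clearly. It was at 523, 539 and 347 CPM in libraries labelled Rbfox2-deleted 1, 2 and 3, against 189, 169 and 191 CPM in controls 1, 2 and 3. The groups did not overlap, and even the lowest library with the deletion label lay far above the highest control. Means were 469 ± 106 CPM (SD, n = 3) with the deletion label and 179 ± 15.3 CPM (SD, n = 2) in controls, a log2 fold change of 1.39 (SE 0.300, 95% interval 0.66 to 2.11, unadjusted p 0.00312, edgeR adjusted p 0.387). Between the male libraries alone it was 1.60, and it was 1.40 after correction for transcript length. With that correction the unadjusted p of Xbp1 in edgeR was no longer under 0.05. That correction moved the median of all genes to 0.43 from 0.11. Relative to this median Xbp1 stood at 0.97 after the correction and 1.28 before it. Gene counts do not separate the spliced from the unspliced form of Xbp1.

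Atf6b, a relative of Atf6, was at 17.0, 22.5 and 28.6 CPM in libraries labelled Rbfox2-deleted, against 6.93, 9.99 and 6.47 CPM in controls. The groups did not overlap, yet the fitted log2 fold change of 1.44 had an SE of 0.883 and an edgeR adjusted p of 0.708. The 3 sensors themselves were scarce. Atf6 had 1, 3 and 20 counts in libraries labelled Rbfox2-deleted, against 13, 1 and 32 in controls 1, 2 and 3. Ern1 had 3, 2 and 26 counts with the deletion label, against 89, 5 and 120 in controls. Eif2ak3 had 0, 198 and 0 counts with the deletion label, against 60, 15 and 48 in controls. All 3 overlapped between the groups and differed between libraries of one label by more than counting error, so that no difference between the labels could be separated from this spread. The 0 counts of Eif2ak3 allow up to 0.152 CPM in library 1 and 0.0771 CPM in library 3, taking 3 counts as the limit and covering counting error only. Wfs1, an ER membrane protein known to restrain Atf6, had 0, 18 and 3 counts with the deletion label, against 108, 9 and 97 in controls, and the groups also overlapped. Mbtps1, the protease that cleaves Atf6, was at 4.19 to 11.7 CPM with the deletion label and at 8.46 to 18.8 CPM in controls. The median log2 fold change of the 7 genes was -0.08, and their libraries with the deletion label lay at -1.50, -0.41 and 0.38 from the control mean.

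**Figure D3:**
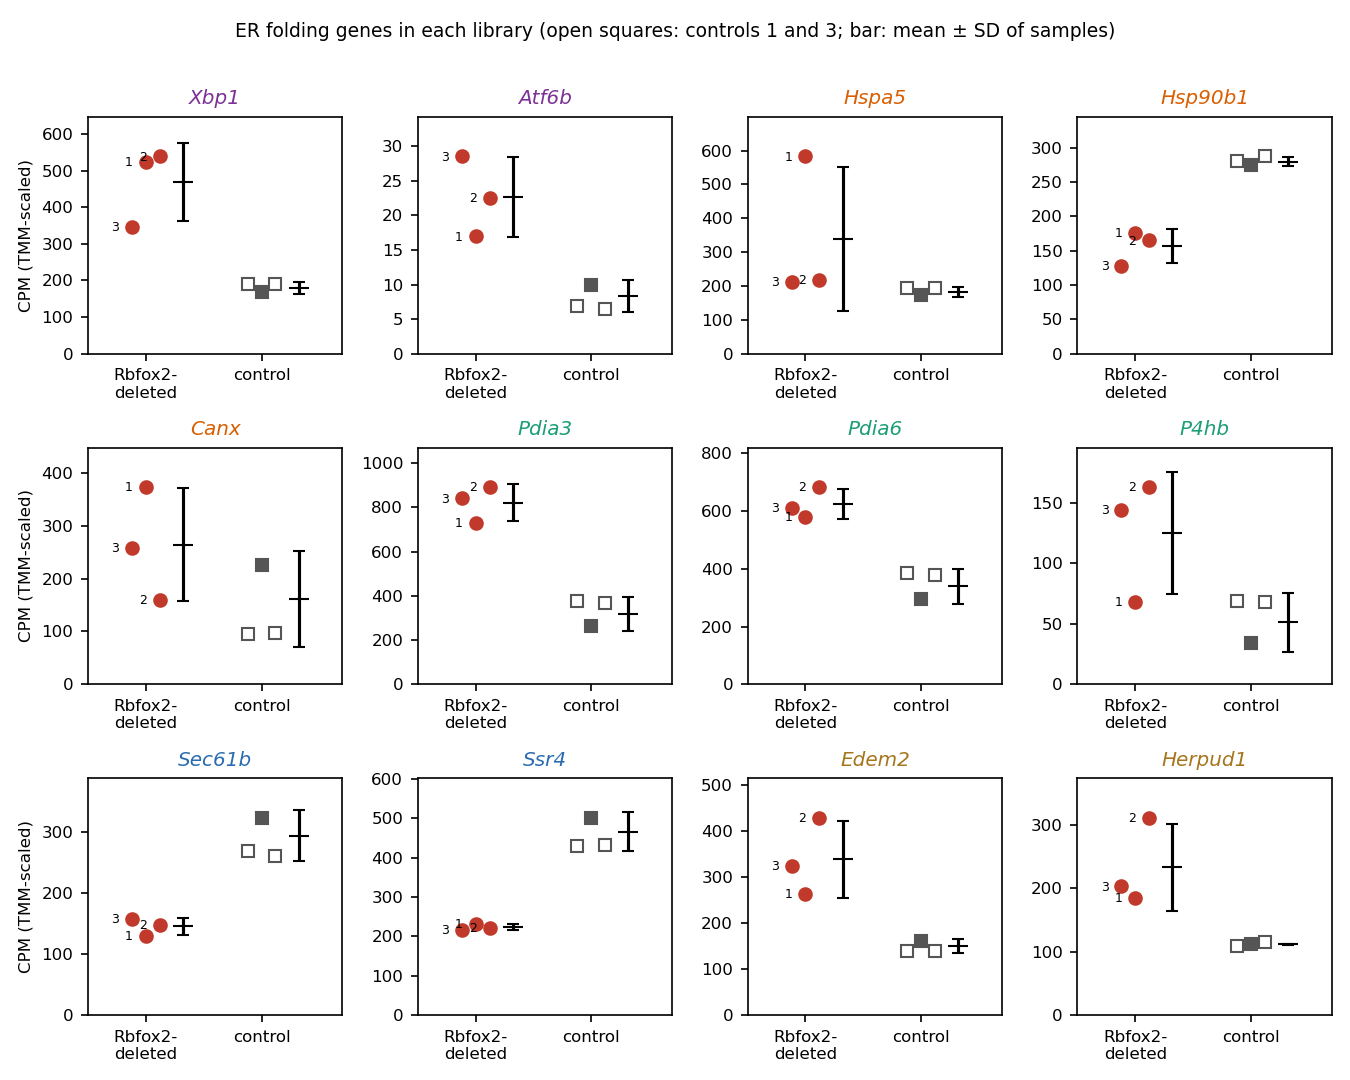
Level in each library (y axis, TMM-scaled CPM, from 0) for 12 ER folding genes; circles are the libraries labelled Rbfox2-deleted with their number, open squares controls 1 and 3, the filled square control 2, and bars the mean ± SD of 3 and 2 samples. Xbp1, Pdia3, Pdia6, Edem2 and Herpud1 lay above every control and Hsp90b1, Sec61b and Ssr4 below, while the high Hspa5 mean came from library 1.

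The chaperone genes were split between Hspa5, encoding the main Hsp70 of the ER (BiP), and Hsp90b1, encoding its Hsp90. Hsp90b1 (ENSMUSG00000020048, chr10:86690209-86705509, minus strand) was at 176, 165 and 128 CPM in libraries labelled Rbfox2-deleted, against 281, 275 and 287 CPM in controls. All 3 libraries with the deletion label lay below all controls. Means were 156 ± 24.8 CPM (SD, n = 3) and 279.6 ± 6.47 CPM in controls (SD, n = 2), with a log2 fold change of -0.84 (SE 0.274, 95% interval -1.50 to -0.18, unadjusted p 0.0206, edgeR adjusted p 0.414). The gene overlaps 1810014B01Rik on the opposite strand, and Smart-seq2 reads carry no strand, so reads of both cannot be told apart there. After correction for transcript length the log2 fold change of Hsp90b1 was -0.55, and after correction for GC content -0.29. Neither had an unadjusted p under 0.05 in edgeR. These corrections moved the median of all genes from 0.11 to 0.43 and 0.46. Relative to the median of all genes in the same fit, Hsp90b1 stood at -0.98 after the length correction and -0.95 before it. Hspa5 (ENSMUSG00000026864, chr2:34771970-34777547, plus strand) was at 583, 219 and 211 CPM in libraries labelled Rbfox2-deleted, against 193, 173 and 194 CPM in controls. The groups did not overlap, but library 1, the one that stood apart, carried nearly all of the distance. On the log2 scale the difference was 0.88 (SE 0.515, 95% interval -0.36 to 2.12, edgeR adjusted p 0.692), and 0.22 without that library.

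The ratio of Hspa5 to Hsp90b1 counts within a library, which no scaling can move, was 3.32, 1.33 and 1.65 in libraries labelled Rbfox2-deleted 1, 2 and 3, against 0.689, 0.629 and 0.674 in controls 1, 2 and 3. Hspa5 therefore outnumbered Hsp90b1 in each library with the deletion label and in no control. The same ratio for Pdia3 and Hsp90b1 was 4.16, 5.41 and 6.55 with the deletion label, against 1.34, 0.960 and 1.29 in controls. Both ratios were chosen after their values were seen.

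Canx, encoding the membrane lectin chaperone calnexin, was at 373, 160.4 and 258 CPM in libraries labelled Rbfox2-deleted, against 96.1, 225 and 97.1 CPM in controls. Control 2 lay inside the range of the libraries with the deletion label, and the edgeR adjusted p was 0.780. The log2 fold change was 0.72 over all samples, 0.00 between the male libraries and below 0.01 in size with sex as a covariate. Because no control was female, the last 2 values rest on the same comparison. It sets library 2 with the deletion label, whose Rbfox2 counts go against its label, against the male controls. Hyou1, a large Hsp70 of the ER, was at 14.9, 2.44 and 3.39 CPM with the deletion label, against 1.14, 2.35 and 1.47 CPM in controls, without overlap but with a log2 SE of 1.51. Calr, encoding the soluble lectin calreticulin, was at 82.5 to 145 CPM with the deletion label and at 90.4 to 92.7 CPM in controls. Creld2 and Sdf2l1, known targets of the stress response, also overlapped, with log2 fold changes of 0.17 (SE 0.577) and 0.09 (SE 0.433). Uggt1, the folding sensor that returns glycoproteins to calnexin, had 5, 416 and 30 counts with the deletion label, against 432, 30 and 494 in controls. For the 8 chaperone genes the median log2 fold change was 0.27, and -0.09 with upper quartile scaling.

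Of the disulfide isomerases and oxidases, the isomerases Pdia3 and Pdia6 were among the clearest members. Pdia3 (ENSMUSG00000027248, chr2:121413775-121438687, plus strand), the isomerase that works with calnexin and calreticulin, was at 729.8, 892 and 841 CPM in libraries labelled Rbfox2-deleted, against 376, 264 and 369 CPM in controls. Each library with the deletion label was above each control by a wide margin. Means were 821 ± 83.1 CPM (SD, n = 3) and 318 ± 76.8 CPM in controls (SD, n = 2), with a log2 fold change of 1.37 (SE 0.268, 95% interval 0.72 to 2.01, unadjusted p 0.00186, edgeR adjusted p 0.387). It was 1.50 between the male libraries. Pdia6 (ENSMUSG00000020571, chr12:17266545-17284770, plus strand), an isomerase known to bind BiP and Ire1, was at 581, 683 and 611 CPM with the deletion label, against 387, 296 and 378 CPM in controls. These groups did not overlap either, with means of 625 ± 52.8 CPM (SD, n = 3) and 339 ± 61.1 CPM in controls (SD, n = 2). It had a log2 fold change of 0.88 (SE 0.247, 95% interval 0.29 to 1.48, unadjusted p 0.0107, edgeR adjusted p 0.387).

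P4hb, encoding protein disulfide isomerase itself, was at 68.2, 163 and 144 CPM in libraries labelled Rbfox2-deleted, against 69.2, 33.7 and 67.8 CPM in controls. Libraries 2 and 3 with the deletion label were above all controls and library 1 was level with controls 1 and 3, and the fitted log2 fold change came to 1.29 (SE 0.559, unadjusted p 0.0578, edgeR adjusted p 0.528). Pdia4, a further isomerase, also had library 1 within the range of the controls and libraries 2 and 3 above it, at 12.7, 41.4 and 41.6 CPM with the deletion label against 18.6, 10.9 and 19.2 CPM in controls. Ero1lb, one of the oxidases that recharge these isomerases, had 0, 22 and 0 counts in libraries labelled Rbfox2-deleted, against 328, 210 and 359 counts in controls. The groups lay far apart, but the fitted log2 fold change of -4.81 had an SE of 2.42 and an edgeR adjusted p of 0.611. Its paralog Ero1l had 0, 580 and 219 counts with the deletion label, against 458, 255 and 453 in controls, and overlapped. The 6 genes had a median log2 fold change of 0.99, or 0.70 with upper quartile scaling, and lay at 0.17, 1.32 and 1.14 from the control mean in libraries 1, 2 and 3 with the deletion label.

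In the translocation step 3 subunit genes with short transcripts had lower levels, and the pore subunit did not. Ssr4 (ENSMUSG00000002014, chrX:73787028-73790830, plus strand), a subunit of the translocon-associated TRAP complex, was at 231, 222 and 217 CPM in libraries labelled Rbfox2-deleted, against 429, 501 and 433 CPM in controls. Spread within each group was small beside the gap between them. Means were 223 ± 6.88 CPM (SD, n = 3) and 466 ± 49.6 CPM in controls (SD, n = 2), with a log2 fold change of -1.06 (SE 0.230, 95% interval -1.62 to -0.51, unadjusted p 0.00311, edgeR adjusted p 0.387). Sec61b (ENSMUSG00000053317, chr4:47474658-47483242, plus strand), the beta subunit of the channel, was at 130.2, 148 and 158 CPM with the deletion label, against 269, 324 and 261 CPM in controls. It showed the same separation, with a log2 fold change of -1.02 (SE 0.267, unadjusted p 0.00793, edgeR adjusted p 0.387). Ssr2, another TRAP subunit, was at 174, 347 and 298 CPM with the deletion label, against 497, 503 and 494 CPM in controls. All libraries with the deletion label were again below the controls, with a log2 fold change of -0.87 (SE 0.336, unadjusted p 0.0393, edgeR adjusted p 0.479). Part of the Ssr2 exons overlaps Gm10704 on the opposite strand.

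These 3 transcripts are short, at 765 bases for Ssr4, 564 for Sec61b and 1189 for Ssr2, and short genes as a whole had lower fitted values. After correction for transcript length the log2 fold changes were -0.20, -0.12 and -0.32, while the median of all genes moved to 0.43 from 0.11. Relative to that median Ssr4 stood at -0.63 after the correction and -1.17 before it, Sec61b at -0.54 and -1.13, and Ssr2 at -0.75 and -0.98.

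The other subunits did not follow. Sec61a1, the pore-forming subunit, was at 86.0, 112 and 103 CPM in libraries labelled Rbfox2-deleted, against 77.9, 58.5 and 78.1 CPM in controls. Ssr3, a TRAP subunit with a longer transcript, was at 68.3, 38.3 and 26.0 CPM with the deletion label, against 12.2, 24.4 and 13.6 CPM in controls. Neither gene overlapped between groups, with log2 fold changes of 0.55 (SE 0.378) and 1.24 (SE 0.746). Counts of Sec61a1 per count of Sec61b were 0.660, 0.752 and 0.650 with the deletion label, against 0.289, 0.181 and 0.299 in controls, a ratio chosen after its values were seen. In counts not corrected for transcript length, subunit transcripts of one channel complex thus stood in different proportions under the deletion and control labels. After that correction the log2 fold changes were 0.86 for Sec61a1 and -0.12 for Sec61b, closer together than 0.55 and -1.02 before it. Part of the Sec61a1 exons overlaps Gm44170 on the opposite strand, where reads of both cannot be told apart. Ssr1 and Sec61g overlapped, and Sec61g has a near-identical copy, Gm10177, with which reads may have been shared. For the 7 genes the median log2 fold change was -0.37, with libraries labelled Rbfox2-deleted at -1.01, -0.52 and -0.59 from the control mean.

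**Figure D4:**
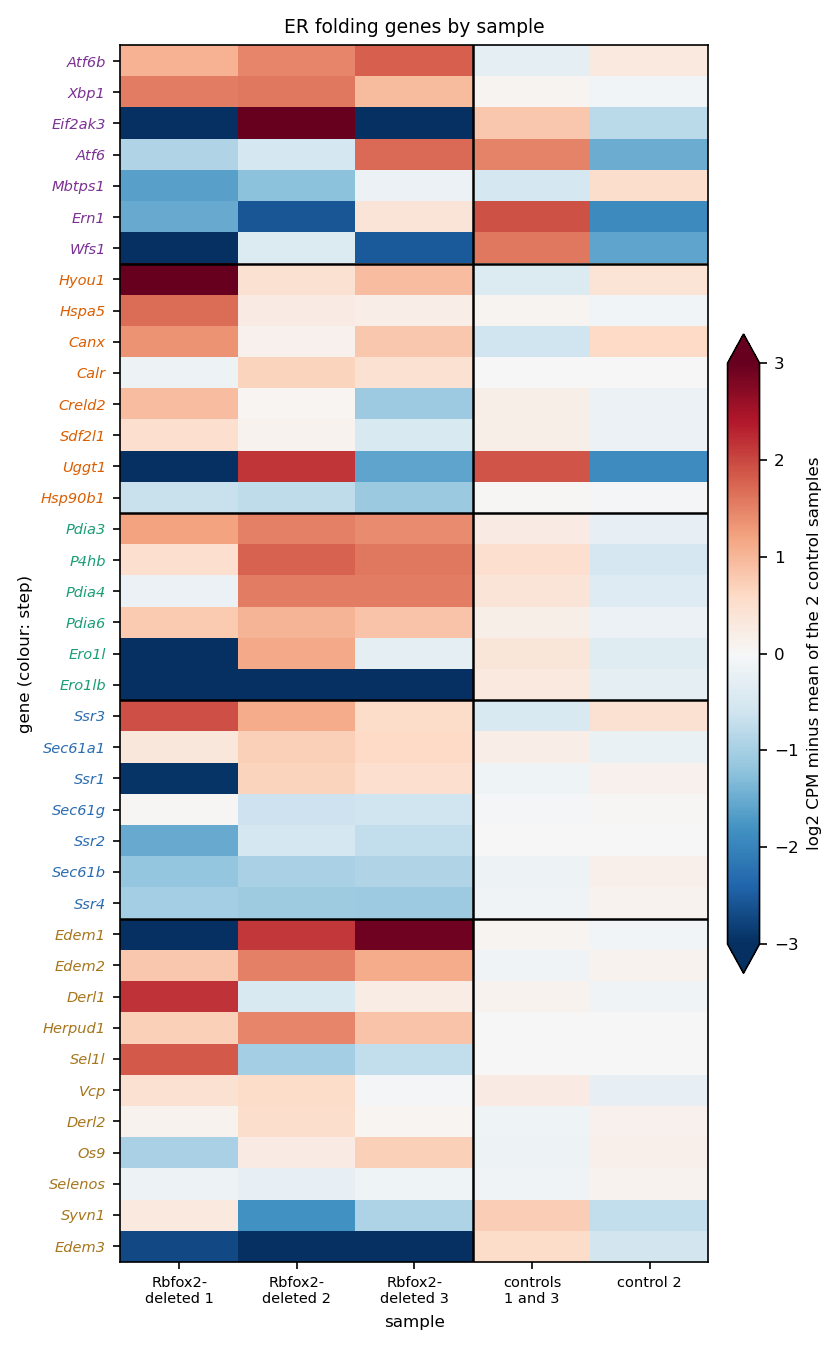
Difference of each sample from the mean of the 2 control samples (colour, log2 CPM, limited to 3 in either direction) for 39 ER folding genes (rows, coloured and separated by step) in the 3 libraries labelled Rbfox2-deleted and the 2 control samples (columns). Pdia3, Pdia6, Xbp1, Edem2 and Herpud1 are red and Ssr4, Sec61b and Hsp90b1 blue in all 3 libraries with the deletion label, and 17 rows hold both colours in these 3 libraries, 6 of them genes with under 10 counts in a library and 11 with more.

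In ERAD, Edem2 and Herpud1 were higher and most other genes could not be separated from their spread. Edem2 (ENSMUSG00000038312, chr2:155701677-155729475, minus strand), which starts the mannose trimming that marks misfolded glycoproteins, was at 263, 429 and 324 CPM in libraries labelled Rbfox2-deleted, against 139, 160.3 and 139 CPM in controls. The groups did not overlap, and means were 339 ± 84.1 CPM (SD, n = 3) and 149.7 ± 15 CPM in controls (SD, n = 2). The fitted difference was 1.18 on the log2 scale (SE 0.315, 95% interval 0.42 to 1.94, unadjusted p 0.00866, edgeR adjusted p 0.387). Herpud1 (ENSMUSG00000031770, chr8:94386438-94395377, plus strand), a stress-induced scaffold of the Hrd1 ligase, was at 185, 312 and 203 CPM with the deletion label, against 109, 112 and 116 CPM in controls. Its controls were nearly level and each library with the deletion label lay above them, with a log2 fold change of 1.06 (SE 0.342, 95% interval 0.23 to 1.88, unadjusted p 0.0198, edgeR adjusted p 0.414).

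The paralogs of Edem2 gave no such picture. Edem3 had 10, 4 and 0 counts in libraries labelled Rbfox2-deleted, against 236, 115 and 305 counts in controls, and the groups lay apart with a log2 fold change of -4.25 (SE 2.11, edgeR adjusted p 0.603). Edem1 had 1, 457 and 812 counts with the deletion label, against 153, 123 and 147 in controls, and its groups overlapped. So the 3 Edem genes stood higher, lower and on both sides of the controls.

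Derl1, a channel protein of ERAD, was at 89.5, 14.6 and 23.2 CPM in libraries labelled Rbfox2-deleted, against 21.9, 18.5 and 21.1 CPM in controls. Sel1l, the partner of the Hrd1 ligase, was at 68.1, 9.29 and 11.2 CPM with the deletion label, against 19.8, 18.7 and 18.3 CPM in controls. Library 1 alone was far above the controls for both, and libraries 2 and 3 put Sel1l below every control. Syvn1, encoding Hrd1, was at 65.7, 15.2 and 28.2 CPM with the deletion label, against 88.7, 32.2 and 88.5 CPM in controls, and the groups overlapped. Derl2, Os9 and Vcp, the ATPase that pulls substrates out of the membrane, had log2 fold changes of 0.14 to 0.31 with overlapping groups, and Vcp has a near-identical copy, Vcp-rs. Selenos, a Vcp adaptor, was at 67.7 to 73.7 CPM with the deletion label and 72.7 to 87.0 CPM in controls, and overlapped once controls 1 and 3 were taken separately. The 11 ERAD genes had a median log2 fold change of 0.31, and -0.03 with upper quartile scaling.

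Fitted values differed between classes of transcript length, among the members as among all genes. Of 5 members with transcripts of at most 1300 bases, 4 had fitted values below 0, with a median log2 fold change of -0.87. Of the 1672 genes tested in that class only 22.7% were above 0, with a median of -0.56. Of 18 members between 1301 and 3500 bases, 15 were above 0, with a median of 0.97, beside 64.0% of 6214 genes and a median of 0.39. Of the 3 lower members in this class, Sec61g is placed by an annotated transcript of 1862 bases that may not be the form expressed. Pdia3, Pdia6, Edem2 and Herpud1, with higher levels, are in this class too. Relative to the median of all genes, Pdia3 stood at 1.10 after the length correction and 1.26 before it, and Pdia6 at 0.40 and 0.77. Edem2 stood at 0.64 after it and 1.07 before it, and Herpud1 at 0.51 and 0.95. The 16 members over 3500 bases were split evenly, 8 above and 8 below, beside 50.4% of 4442 genes. Under 10 counts in at least 1 library were found for 9 members, and all 9 were in the longest class. Library 1 with the deletion label held 8 of them under 10 counts, library 2 held 3 and library 3 held 4, against 3 in control 2 and 0 in controls 1 and 3. Across the 39 members length and log2 fold change had a Spearman correlation of -0.03, and 0.26 over the 30 members with at least 10 counts everywhere, as a description of genes that share the same libraries.

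**Figure D5:**
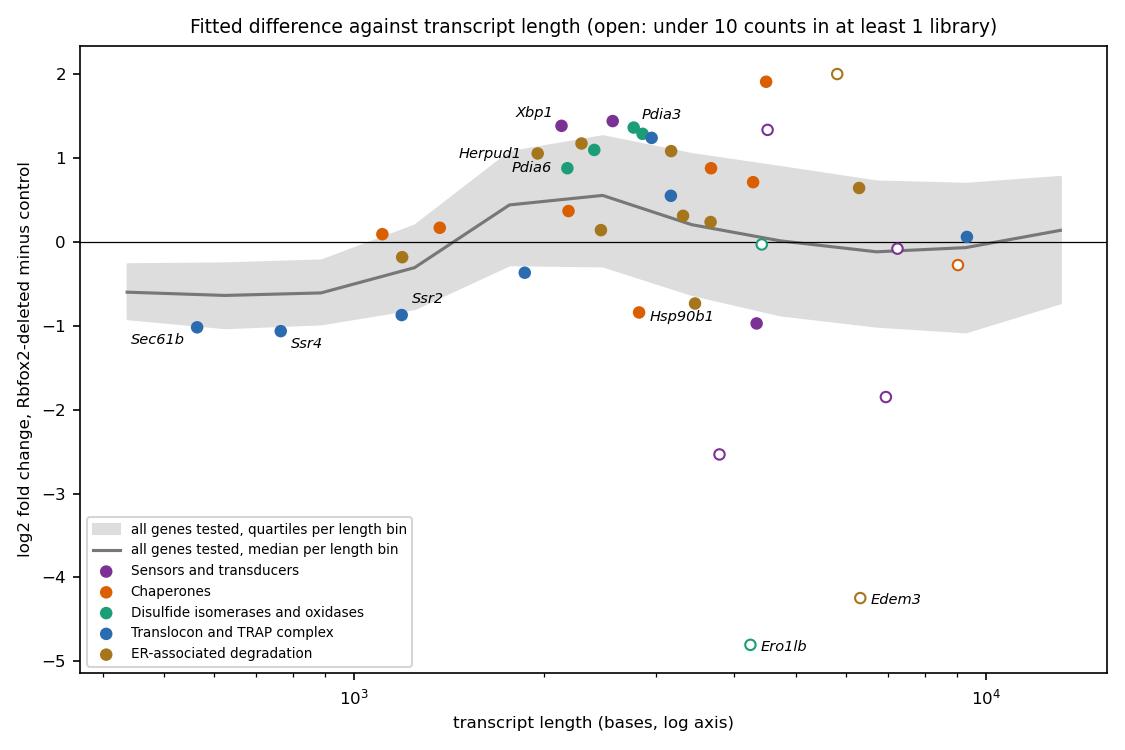
Log2 fold change of each member (y axis, libraries labelled Rbfox2-deleted minus control) by transcript length (x axis, bases, log axis), coloured by step and open where a library held under 10 counts; the line and band are the median and quartiles of all genes tested by length. The short members Ssr4, Sec61b and Ssr2 lie below 0, as the median of short genes does, and Xbp1 and Pdia3 lie above the band's centre.

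A further 90 genes of the same pathway were kept in 5 lists, with Dnajc3 in 2 of them. Of these, 87 were tested, edgeR called 0 after adjustment, and 20 had an unadjusted p under 0.05, 13 higher and 7 lower in libraries labelled Rbfox2-deleted (9.89% of all genes, 5.33% higher and 4.56% lower). Their median log2 fold change was 0.39, beside 0.11 over all genes. In stress signalling, 11 of 15 genes were fitted above 0 (median 0.84). Rtcb, the ligase known to join the Xbp1 exons cut by Ire1, was at 267, 276 and 361 CPM with the deletion label, against 99.8, 96.5 and 104 CPM in controls. It did not overlap and had a log2 fold change of 1.60 (SE 0.292), an edgeR adjusted p of 0.387 and a DESeq2 adjusted p of 0.0253. Ppp1r15a, a phosphatase subunit that reverses Perk signalling, had a log2 fold change of 1.36 (SE 0.436, edgeR adjusted p 0.410), and Ddit3, encoding the Perk-branch factor Chop, one of -1.23 (edgeR adjusted p 0.436). The Perk-branch genes named here thus had opposite signs.

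Further ERAD genes were fitted above 0 in 14 of 18 cases (median 0.76), beside 53.5% of all genes. At an unadjusted p under 0.05, 4 were higher and 0 lower, beside 5.33% and 4.56% of all genes. Ube2g2, a ubiquitin-conjugating enzyme of ERAD, had a log2 fold change of 1.58 (SE 0.432, edgeR adjusted p 0.387), and Ubxn8, which tethers Vcp to the membrane, one of 1.31 (SE 0.501, edgeR adjusted p 0.473). Further chaperones and isomerases were divided, 12 above and 10 below 0 (median 0.06). Among them Txndc5, a thioredoxin-like isomerase, was at 61.2, 75.4 and 84.3 CPM in libraries labelled Rbfox2-deleted, against 23.5, 19.1 and 22.3 CPM in controls. Txndc5 had a log2 fold change of 1.81 (SE 0.507, edgeR adjusted p 0.387, DESeq2 adjusted p 0.0222). Dnajb11, a co-chaperone of BiP, had one of 1.56 (SE 0.508, edgeR adjusted p 0.414, DESeq2 adjusted p 0.143). Among the up to 2 genes per list with the smallest edgeR p, only Rtcb and Txndc5 had a DESeq2 adjusted p under 0.05. The next smallest was 0.0571, for Ube2g2.

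Targeting and signal peptidase genes showed 10 above and 8 below 0 (median 0.15). The 3 of these 18 genes with an unadjusted p under 0.05 in edgeR were all lower, beside 5.33% of all genes higher and 4.56% lower. The signal peptidase subunits Spcs1 and Sec11c had log2 fold changes of -1.10 (SE 0.270, edgeR adjusted p 0.387) and -0.86 (SE 0.262, edgeR adjusted p 0.390). N-glycan genes had 7 above and 8 below 0 (median -0.09). The oligosaccharyltransferase subunits Rpn1 and Rpn2 had log2 fold changes of 1.09 (SE 0.369, edgeR adjusted p 0.428) and 1.65 (SE 0.565, edgeR adjusted p 0.434), while Dad1, a small subunit of the same enzyme, had one of -0.71 (edgeR adjusted p 0.453). As in the Sec61 and TRAP complexes, subunits of one enzyme stood on both sides of 0, in counts not corrected for transcript length. Over all genes with transcripts of at most 1300 bases the median log2 fold change was -0.56. The part of transcript length in the values of Dad1, Spcs1 and Sec11c was not tested.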

How the data were processed

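Counts of reads per gene were deposited by the authors without normalization. The submitters' processing notes name Trimmomatic 0.39, featureCounts, DESeq2 1.36.0 and build mm10, with no role given. The sources used here do not name the aligner, annotation or strand setting, or say how reads that match several places were treated. The 134 rows that shared 60 identifiers were summed per identifier (0.449% of counts). Controls 1 and 3 were summed and counted as 1 sample, a choice made from these data. The labels give mice as separate samples but no animal numbers, so p-values cover the spread among these 5 samples alone, which may be technical.

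The quasi-likelihood F test of edgeR, two-sided (version 4.0.16, R version 4.3.3) was run after filterByExpr (minimum count 10, minimum total 15) and TMM scaling, with p-values adjusted by Benjamini-Hochberg over 12350 genes at a threshold of 0.05. CPM are scaled by TMM factors, and the common dispersion was 1.09. Alternatives were DESeq2 1.42.0, limma-voom (limma 3.58.1), other scalings, filters and sample choices, sex, and transcript length and GC corrections from GENCODE principal transcripts. Promoter letters came from RefSeq. Of the scripts, only the edgeR fit was tested on simulated data. Its fold changes were checked only at a dispersion far below the 1.09 of these data. The power of the test in these data is not reported here.

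Members and lists were chosen with earlier results of these data known. Values by library are given for the main sensors and for up to 3 members per step with the smallest edgeR p, and further pathway genes for up to 2 per list. Other genes named (Ddit3, Dad1 and single members) were chosen after their values were seen.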

Additional observations from a re-analysis of the deposited data

How the results depend on the processing

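All 9 members with an unadjusted p under 0.05 kept their sign in 19 of 19 alternatives, and their lowest edgeR, DESeq2 or limma-voom adjusted p was 0.0635 to 0.117. These members were picked by that p in the same data, and their groups did not overlap. Leaving out a sample could therefore hardly turn a sign. The number of members called after adjustment was 0 in all alternatives. At an unadjusted p under 0.05 there were 14 members with 6 separate libraries (8 higher, 6 lower, 17.7% of all genes), 1 with the transcript length correction (1 higher, 0 lower, 4.38%) and 4 with the GC correction (4 higher, 0 lower, 5.5%), against 9 (5 higher, 4 lower, 9.89%). All 4 lower members lost an unadjusted p under 0.05 in both corrections. With the length correction Pdia3 alone kept one, so Xbp1, Pdia6, Edem2 and Herpud1 lost it as well. Leaving out replicates gave 4 to 17 members, 17 of them without library 1 labelled Rbfox2-deleted (23.7% of all genes), and 4 without control 2 (3.49%). Non-overlapping members numbered 26 without library 1 (54.4% of all genes), against 17 (32%). Leaving a lone sample in the control group assumes that it varies like the other group.

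Some median log2 fold changes moved. Upper quartile scaling gave -0.74 for translocation, -0.027 for ERAD and -0.088 for all members. No filter gave 0.15 for ERAD and 0.085 for all members, and a minimum count of 50 gave 1.37 for sensors. Sex as a covariate gave -1.21 and male libraries alone -1.19 for sensors. Because no control was female, both fits rest on library 2 with the deletion label against the male controls. They are therefore not separate checks among the alternatives. Length correction gave 0.81 for chaperones, 0.81 for ERAD and 0.77 for all members (all genes 0.43). GC correction gave 0.74, 0.75 and 0.67 (all genes 0.46), with 0.14 for translocation. Leaving out samples gave -0.43 to 1.44 for sensors, 0.19 to 0.42 for chaperones, 0.75 to 1.29 for isomerases, -0.62 to -0.28 for translocation, 0.18 to 0.56 for ERAD and 0.18 to 0.56 for all members, with the chaperone, isomerase and translocation medians staying within their spread. The cause of the moves was not tested.

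Replicate numbers did not pair the samples, whose same-number correlations were -0.0423, -0.00892 and 0.0491. With the replicate block on 6 libraries the median over all members was 0.015 (all genes -0.27), and Eif2ak3 turned to -4.55. Signs also turned with limma-voom for Atf6 (0.37) and Eif2ak3 (-2.30), with the length and GC corrections for Atf6 (0.41 and 0.10), and with sex as a covariate for Canx (-0.0036). Leaving out samples gave -0.97 to 3.17 for Atf6, -2.75 to 1.44 for Ern1 and -8.16 to 2.42 for Eif2ak3.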
